A study of Homo sapiens with 12 samples.

Results

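The genes described here are the ATP-binding cassette (ABC) genes of CAOV3 cells outside the sterol exporters ABCA1 and ABCG1 and outside the peroxisomal ABCD subfamily. A gene was a member when its symbol was ABC followed by the subfamily letter A, B, C, E, F or G and a number, with ABCA1 and ABCG1 left out. The rule matched 39 of the 19677 genes in the count tables. Of these, 23 had a mean of at least 1 CPM over the 4 treatment groups and are described below, 25 had enough counts to be tested, and 16 lay under 1 CPM. CPM is the read count of a gene as a share of its library, scaled by TMM, and it is not corrected for gene length.

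CAOV3 is an established line of human high-grade serous ovarian carcinoma, labelled wild type and grown in DMEM with 10% fetal bovine serum. RNA was sequenced from 12 libraries in 4 groups of 3: controls in DMSO, cells exposed for 16 hours to 10% ascites from ovarian cancer plus DMSO, cells given 200 uM bezafibrate for 16 hours, and cells given 10% ascites and 200 uM bezafibrate together for 16 hours, here called the combination. The study asked which transcripts change when ovarian cancer cells meet ascites, the abdominal fluid of this disease, and bezafibrate, a fibrate that activates PPAR receptors. The control labels give no time, and DMSO is not named for the groups given the drug, so a difference in solvent cannot be told apart from the drug. All groups are 1 cell line, the number of ascites sources is not stated, and the labels do not say that replicates were separate cultures or experiments, so the p-values measure the spread between these libraries.

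ABC transporters use the energy of ATP to move substrates across membranes. The pumps ABCB1, ABCG2 and several ABCC proteins move drugs and conjugated organic anions out of cells and are studied in ovarian cancer for their part in resistance to chemotherapy. Other members serve mitochondria, lysosomes or lipid storage, and the ABCE and ABCF proteins have the ATPase domains but no membrane spans and act in translation. In liver, ABCC2 exports conjugates into bile while ABCC3 exports them towards the blood.

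Total counts per library ranged from 11831093 to 18762759. The first principal component of all tested genes (37% of the variance) split the libraries by the drug. On the second, with 9.88%, combination replicate 3 lay at -22.4 and the other 11 libraries between -4.37 and 9.84, so the calls that rest on it are also given without it. The keratins KRT8 and KRT18 averaged 3030 and 1800 CPM and EPCAM 30.2 CPM, but the markers of serous ovarian tumours PAX8, MUC16, WT1 and MSLN were each under 1 CPM on average (0.676, 0.0598, 0.088 and 0.393). Of the 6 white blood cell markers, 5 were at 0 in every library, as were the platelet genes PPBP, PF4 and GP9. The remaining white blood cell marker, CD14, lay between 1.55 and 3.91 CPM. The red blood cell genes HBA1 and HBB averaged 0.535 and 0.093 CPM. The 3 mesothelium markers summed to between 0.783 and 2.46 CPM and the 3 endothelium markers to between 0.147 and 0.764 CPM. The 4 fibroblast markers summed to between 9.99 and 11.5 CPM in libraries without the drug and to between 5.57 and 7.21 CPM with it. The collagens COL1A1 and COL3A1 averaged 4.81 and 3.47 CPM of this, while PDGFRB and DCN averaged 0.26 and 0.0196 CPM. The sum therefore does not show a content of fibroblasts, and the part of these markers in the results below was not tested.

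Promoter sequence is shown for ABCB1, ABCC2, ABCG2 and ABCC4, the pumps with a RefSeq entry that were called with bezafibrate against control, so that the letters around their start sites stand beside their values. Sequences come from RefSeq (GRCh38.p14), run 5′ to 3′ on the strand of the gene and cover 250 bases before and 50 after a start. RefSeq windows matched 31 of the 39 members. ABCC3, ABCC1 and ABCB4 had no entry. ABCB1 and ABCG2 have several entries, and the one holding a motif searched is shown (for ABCG2 the one with AGGTCA). Capitals mark AGGTCA (the core letters of nuclear receptor sites), TGACNNNGC (the core of the antioxidant response element), CCAAT or TATAAA, on either strand.
ABCB1, chr7:87600835-87601134, minus strand: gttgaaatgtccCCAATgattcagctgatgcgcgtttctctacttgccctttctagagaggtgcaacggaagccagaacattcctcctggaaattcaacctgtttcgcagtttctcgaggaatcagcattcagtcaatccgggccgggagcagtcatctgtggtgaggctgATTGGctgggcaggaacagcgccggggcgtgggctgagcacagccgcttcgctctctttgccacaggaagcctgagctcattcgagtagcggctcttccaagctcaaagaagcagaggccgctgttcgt
ABCC2, chr10:99782390-99782689, plus strand: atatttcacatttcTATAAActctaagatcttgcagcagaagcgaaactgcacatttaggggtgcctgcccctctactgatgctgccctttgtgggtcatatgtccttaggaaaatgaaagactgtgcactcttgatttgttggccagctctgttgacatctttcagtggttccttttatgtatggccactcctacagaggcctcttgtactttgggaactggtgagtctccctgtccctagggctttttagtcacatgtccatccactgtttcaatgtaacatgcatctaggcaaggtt
ABCG2, chr4:88158590-88158889, minus strand: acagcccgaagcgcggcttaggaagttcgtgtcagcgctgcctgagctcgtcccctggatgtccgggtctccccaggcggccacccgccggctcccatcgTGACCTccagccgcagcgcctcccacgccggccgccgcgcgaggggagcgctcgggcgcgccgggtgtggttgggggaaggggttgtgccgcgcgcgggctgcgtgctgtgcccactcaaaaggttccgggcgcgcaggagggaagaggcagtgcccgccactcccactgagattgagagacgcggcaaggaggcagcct
ABCC4, chr13:95301402-95301701, minus strand: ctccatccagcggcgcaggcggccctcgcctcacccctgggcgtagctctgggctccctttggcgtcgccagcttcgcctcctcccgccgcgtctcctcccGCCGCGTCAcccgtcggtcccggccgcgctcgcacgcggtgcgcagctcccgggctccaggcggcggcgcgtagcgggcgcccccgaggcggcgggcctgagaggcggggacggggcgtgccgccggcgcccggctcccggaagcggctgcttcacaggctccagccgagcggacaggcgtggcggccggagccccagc

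The ABCB1 window held CCAAT on both strands, and the ABCC2 window held TATAAA and no other motif searched. The ABCG2 window shown held AGGTCA on the opposite strand, and the ABCC4 window held TGACNNNGC on the opposite strand. Another ABCG2 window, chr4:88159241-88159540, held TGACNNNGC. The remaining ABCG2 windows and the other ABCB1 window held no motif searched. The windows shown for ABCB1 and ABCG2 were picked for holding a motif, so the shares below are no yardstick for them. Among all 35116 RefSeq windows of this length, 34.6% held CCAAT, 11.5% TATAAA, 13.8% AGGTCA and 13.3% TGACNNNGC. The direct repeat AGGTCANAGGTCA, the letters usually given for binding of PPAR with RXR, was in 0.0228% of all windows and in no window of a member. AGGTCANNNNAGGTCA, given for LXR with RXR, was in 0.0199% and likewise in no window of a member. Both repeats contain AGGTCA. These matches describe the letters only, and the motifs were chosen after the values of the members had been seen.

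Per kilobase of transcript, the most abundant members were not membrane pumps but the soluble ATPases of translation. ABCE1, which splits ribosomes after termination, stood at 106.4 CPM per kilobase. ABCF2 followed at 41.89 and ABCF1, a factor that binds eIF2 and ribosomes, at 34.71. The first membrane transporters in this order were ABCC4 at 29.6, ABCC2 at 21.18 and ABCC1 at 14.48 CPM per kilobase, and ABCF3 (13.46) and ABCA3 (11.45) came next. Neighbours overlapped over the 12 libraries for ABCF1 with ABCC4 and for ABCC1 with ABCF3, and were apart elsewhere in this upper stretch.

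The middle of the order held the mitochondrial carriers and the other pumps within a narrow range. ABCB10 stood at 8.28 CPM per kilobase, ABCB6 at 7.13 and ABCB8 at 5.92. Each overlapped with the next. ABCG2 (5.64), ABCA2 (5.51), ABCC3 (5.39), ABCC5 (5.31), ABCC10 (5.06) and ABCB1 (4.11) followed, and the lowest were ABCB9 (2.45), ABCC6 (1.42), ABCA7 (1.23), ABCB4 (0.728) and ABCA5 (0.557). Together, all members summed to between 1486 and 1543 CPM in the 12 libraries. The 4 translation ATPases took 46.7% to 49.1% of that sum and the pumps for drugs and conjugates 34.3% to 36.1%, so the largest shares by role moved by a few percentage points at most.

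**Figure D1:**
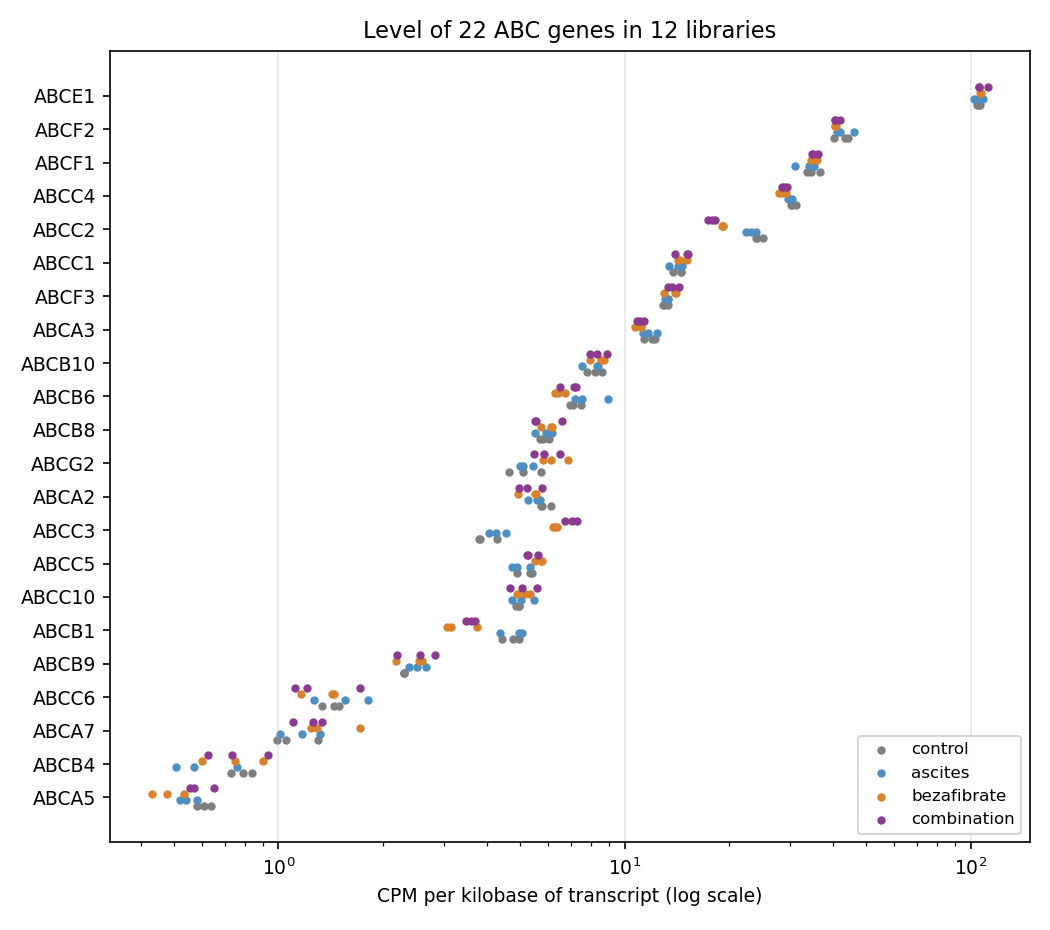
CPM per kilobase of transcript (log axis) for 22 of the 23 described members, 1 point for each of the 12 libraries, coloured by group. ABCE1 lies highest near 106.4 and ABCA5 lowest near 0.557, and the libraries with bezafibrate stand apart from those without it for ABCC3, ABCC2 and ABCB1.

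The averaged drug effect set the 6 libraries with bezafibrate against the 6 without, each within its own ascites background, as a log2 fold change with an edgeR quasi-likelihood p adjusted over 12470 genes. A gene was called when the adjusted p was under 0.05. Of the 23 described members, 2 were called higher (ABCC3 and ABCG2) and 5 lower (ABCB1, ABCC2, ABCB6, ABCA3 and ABCC4), which is 30.4%. Over all genes tested, 28.3% were called (15% higher and 13.2% lower), and 29% of those with a mean of at least 1 CPM, so the count of called members lay near that of any genes. The median change of the described members was 0.04 and that of all genes tested -0.0047. Counting all 25 tested members adds ABCA13 and gives 8, and the count over the described members was chosen after these values had been seen. Without combination replicate 3 the described members called numbered 8, since ABCC5 and ABCA7 were then called higher and ABCB6 was no longer called. The averaged drug effect was then 0.70 for ABCC3, 0.21 for ABCG2, -0.47 for ABCB1, -0.35 for ABCC2 and -0.09 for both ABCC4 and ABCA3, each still called.

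Among the 9 described pumps for drugs and conjugates, 2 rose, 3 fell and 4 were not called. That is 55.6% called, where 28.3% of all genes tested were called. The list is small and no set test was run on it. ABCC3 (chr17:50634777-50692252, plus strand, GRCh38), an exporter of organic anions and bile acid conjugates, had the change with the lowest p of all members. Its level was 21.7, 24.5 and 21.9 CPM in control, 24.3, 26 and 23.2 CPM with ascites, 35.9, 36.4 and 35.5 CPM with bezafibrate, and 40.2, 41.6 and 38.5 CPM in the combination. All 6 libraries with the drug lay above all 6 without it. The averaged drug effect was 0.69 on the log2 scale (SE 0.0463, 95% interval 0.60 to 0.78, 1.61-fold), with an edgeR adjusted p of 3.83e-15.

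ABCC3 rose by 0.66 with bezafibrate against control (edgeR adjusted p = 2.62e-10) and by 0.71 in the combination against ascites (edgeR adjusted p = 3.48e-11). Without combination replicate 3 the latter was 0.74. By p, ABCC3 ranked 215 among all genes in the averaged drug effect. Its group means were 22.7 ± 1.53 CPM in control, 24.5 ± 1.43 with ascites, 35.9 ± 0.458 with bezafibrate and 40.1 ± 1.56 in the combination (SD, n = 3).

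ABCC2 (chr10:99782640-99852594, plus strand), the transporter that carries glucuronide and glutathione conjugates across the apical membrane, moved the other way. Its level was 140, 139 and 146 CPM in control and 139, 130 and 135 CPM with ascites. With bezafibrate it was 112, 112 and 111 CPM, and in the combination 104, 106 and 101 CPM. The groups with and without the drug did not overlap, and the 3 combination libraries lay below the 3 given bezafibrate alone. Averaged over both backgrounds the drug change was -0.36 (SE 0.0275, 0.78-fold), with an edgeR adjusted p of 1.7e-13.

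The decrease of ABCC2 was called in both drug comparisons, at -0.34 against control (edgeR adjusted p = 4.84e-09) and -0.37 against ascites (edgeR adjusted p = 1.28e-09, and -0.36 without combination replicate 3). As a description chosen after the values were seen, the ratio of ABCC3 to ABCC2 in CPM was 0.161 ± 0.014 in control, 0.182 ± 0.015 with ascites, 0.322 ± 0.0018 with bezafibrate and 0.385 ± 0.0063 in the combination (SD, n = 3). The transcripts of these genes differ little in length, at 5716 and 5806 bases.

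ABCB1 (chr7:87503633-87713323, minus strand) encodes P-glycoprotein, the pump best known for exporting taxanes and anthracyclines. It stood at 22.7, 21.1 and 23.7 CPM in control, 20.8, 23.7 and 24.2 CPM with ascites, 17.9, 14.7 and 15.1 CPM with bezafibrate, and 16.6, 17.2 and 17.7 CPM in the combination. Every library with the drug was lower than every library without it. Averaged, the drug change was -0.46 (SE 0.0599, 0.728-fold), with an edgeR adjusted p of 8.67e-08. It was -0.50 against control (edgeR adjusted p = 1.71e-05) and -0.42 against ascites (edgeR adjusted p = 0.000305, and -0.44 without combination replicate 3).

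ABCG2 (chr4:88090264-88231322, minus strand), the breast cancer resistance protein, exports porphyrins, urate and drugs such as topotecan. Its level was 20.8, 22.8 and 25.7 CPM in control, 22.8, 24.4 and 22.4 CPM with ascites, 30.7, 26 and 27.4 CPM with bezafibrate, and 24.5, 26.3 and 29.2 CPM in the combination. All 3 bezafibrate libraries lay above all control libraries, while control replicate 3 lay above combination replicate 1. Its averaged drug effect was 0.24 (SE 0.0572, 1.18-fold), with an edgeR adjusted p of 0.00123.

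Taken against control alone the change of ABCG2 was 0.29 (edgeR adjusted p = 0.00844). That call was lost without control replicate 1 (0.21, edgeR adjusted p = 0.105) or without bezafibrate replicate 1 (0.21, edgeR adjusted p = 0.0993). In the combination against ascites it was 0.19 and was not called (edgeR adjusted p = 0.105, and 0.0363 without combination replicate 1). Without combination replicate 3 the log2 fold change there was smaller, at 0.13. The ratio of ABCG2 to ABCB1 in CPM averaged 1.03 in control, 1.02 with ascites, 1.77 with bezafibrate and 1.55 in the combination, again a description chosen after the values were seen.

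ABCC4 (chr13:95019829-95301475, minus strand), which exports cyclic nucleotides, prostaglandins and nucleotide analogues, changed little in size but was called. It stood at 183, 179 and 177 CPM in control, 174, 176 and 179 CPM with ascites, 171, 167 and 164 CPM with bezafibrate, and 167, 169 and 173 CPM in the combination. The 6 libraries with the drug lay below the 6 without, the highest at 173 and the lowest at 174 CPM. Its averaged drug effect was -0.08 (SE 0.0243, 0.946-fold, edgeR adjusted p = 0.0105). Against control it was -0.11 (edgeR adjusted p = 0.0247), and that call was lost without control replicate 1 or 2 or bezafibrate replicate 2 or 3, with an edgeR adjusted p of 0.0629 to 0.12. Against ascites it was -0.06 and not called (edgeR adjusted p = 0.315).

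ABCC1, the multidrug resistance protein that exports glutathione conjugates and leukotrienes, was not called. Its level was 90.7, 95.3 and 95.6 CPM in control, 93.3, 88.3 and 96.2 CPM with ascites, 94.5, 93.7 and 99.3 CPM with bezafibrate, and 91.9, 99.9 and 99.6 CPM in the combination. The groups overlapped. Its averaged drug effect was 0.05 with a 95% interval of -0.02 to 0.11 (edgeR adjusted p = 0.308), so a change of the size of that of ABCC3 or ABCB1 lies outside this interval.

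The other described pumps were not called either with all 12 libraries. ABCC5, an exporter of cyclic nucleotides and heme, had an averaged drug effect of 0.12 with an edgeR adjusted p of 0.0535. It was called without combination replicate 3 (0.12, edgeR adjusted p = 0.0405) and without ascites replicate 1 (0.14, edgeR adjusted p = 0.0264). ABCC10, which exports taxanes among other drugs, had 0.04, and ABCC6, whose loss causes pseudoxanthoma elasticum, had -0.12. ABCC6 has near-identical pseudogene copies, so its count depends on how shared reads were divided. Its value was -0.24 without combination replicate 1, -0.06 without ascites replicate 2 and -0.06 without combination replicate 3, and it was called in none of these. ABCB4, the phospholipid exporter of bile, had 0.11 with a 95% interval of -0.20 to 0.42 at between 26 and 60 counts a library, and leaving out 1 library gave 0.03 to 0.20.

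**Figure D2:**
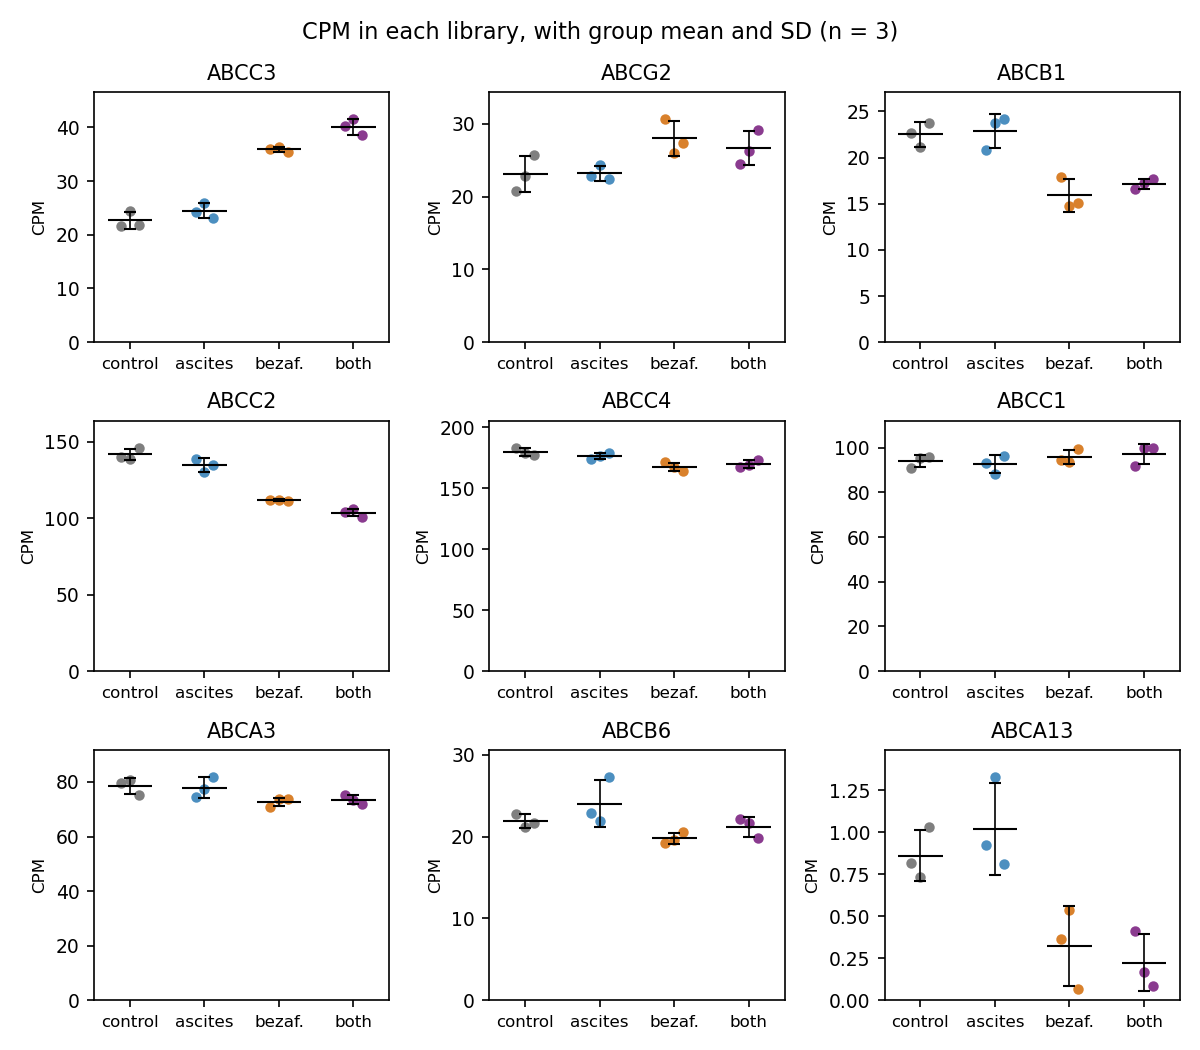
CPM (axes from 0) in each library for 8 described members and for ABCA13, with points for the 3 libraries of a group, a line for the mean and bars for the SD ("bezaf." is bezafibrate, "both" the combination). ABCC3 sits between 35.5 and 41.6 CPM in the libraries with the drug and between 21.7 and 26 CPM without it, ABCC2 and ABCB1 sit lower with the drug, and ABCC1 overlaps between groups.

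Of the 4 mitochondrial carriers tied to heme and iron, 1 fell and 3 were not called (25% called, beside 28.3% of all genes). ABCB6 (chr2:219209766-219219017, minus strand), a porphyrin transporter, stood at 22.8, 21.2 and 21.6 CPM in control, 22.9, 21.9 and 27.3 CPM with ascites, 19.2, 19.6 and 20.5 CPM with bezafibrate, and 22.1, 21.7 and 19.8 CPM in the combination. The libraries with and without the drug overlapped, and ascites replicate 3 was the highest. The averaged drug effect was -0.16 (SE 0.0567, edgeR adjusted p = 0.0267). The call was lost without ascites replicate 3 (-0.11, edgeR adjusted p = 0.146), without any 1 of control replicate 1, bezafibrate replicates 1 and 2 or combination replicate 3 (edgeR adjusted p of 0.0528 to 0.0746), and with DESeq2 (adjusted p = 0.0796).

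ABCB6 also shares 2864 exon bases in GENCODE 29 with another gene model on the same strand that is not used here, which makes its count uncertain. ABCB10, which supports heme synthesis, had an averaged drug effect of 0.04 and ABCB8 0.02, neither called. ABCB9, the lysosomal peptide carrier, had 0.04 and was not called, and it overlaps exons of OGFOD2 and ARL6IP4 on the opposite strand, where the strand setting of the counting is not stated.

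Of the 4 described ABCA transporters, which move phospholipids and other lipids, 1 fell and 3 were not called. That is 25% called, beside 28.3% of all genes. ABCA3 (chr16:2275881-2340746, minus strand), known for loading surfactant lipids into lamellar bodies in the lung, stood at 79.5, 80.9 and 75.4 CPM in control, 74.5, 77.5 and 81.9 CPM with ascites, 70.8, 73.6 and 73.6 CPM with bezafibrate, and 75.3, 73.5 and 71.8 CPM in the combination. The bezafibrate libraries lay below all control libraries, while the combination overlapped with ascites. The averaged drug effect was -0.10 (SE 0.0329, edgeR adjusted p = 0.0206), and the call was lost without control replicate 2 (edgeR adjusted p = 0.0636), ascites replicate 3 (0.0836) or bezafibrate replicate 1 (0.0559).

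ABCA7, a phospholipid transporter known from Alzheimer disease genetics, had an averaged drug effect of 0.22 with an edgeR adjusted p of 0.0924. It was called without control replicate 2 (0.28, edgeR adjusted p = 0.0389), without bezafibrate replicate 1 (0.26, edgeR adjusted p = 0.0497) and without combination replicate 3 (0.25, edgeR adjusted p = 0.0431), and stood at 0.13 without bezafibrate replicate 2. Against control ABCA7 was at 0.35 (edgeR adjusted p = 0.0656), and at 0.18 without bezafibrate replicate 2. That change was called without control replicate 2 or bezafibrate replicate 1 (edgeR adjusted p of 0.0271 and 0.0324). It was also called with no filter (0.0348), the replicate block (0.0389) and only the groups compared (0.0362). Against ascites ABCA7 was at 0.08 and not called (edgeR adjusted p = 0.759). ABCA2, an endolysosomal lipid transporter, had -0.10 with an edgeR adjusted p of 0.0976, and was called without combination replicate 2 (-0.12, edgeR adjusted p = 0.0354) and with upper-quartile scaling (-0.11, edgeR adjusted p = 0.0453). ABCA5 had -0.12 and was not called. It had 54 to 80 counts a library and shares 318 exon bases with ABCA10 on the same strand, which makes its count uncertain. It was the 1 described member with an unadjusted p under 0.05 for the interaction between drug and ascites, at -0.34 against control and 0.11 against ascites, and the edgeR adjusted p of that difference was 0.999.

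None of the 4 soluble ATPases of translation was called with the drug when all 12 libraries were used, where 28.3% of all genes were. ABCE1 had an averaged drug effect of 0.03 (95% interval -0.02 to 0.07), ABCF1 0.04 (-0.02 to 0.10) and ABCF3 0.06 (-0.03 to 0.14). ABCF2 had -0.07 with an edgeR adjusted p of 0.0678, and was called lower without control replicate 2 (edgeR adjusted p = 0.0266), without ascites replicate 3 (0.0314) and with upper-quartile scaling (0.0188), while it stood at -0.04 without ascites replicate 2. It shares 1914 exon bases with the read-through gene ABCF2-H2BE1, which averaged 80.3 CPM and rose by 0.13 (edgeR adjusted p = 0.00408). With both counted as 1 gene, an alternative added after seeing the data, the change was 0.00 (edgeR adjusted p = 0.976). ABCE1 overlaps ANAPC10 and OTUD4 on the opposite strand.

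**Figure D3:**
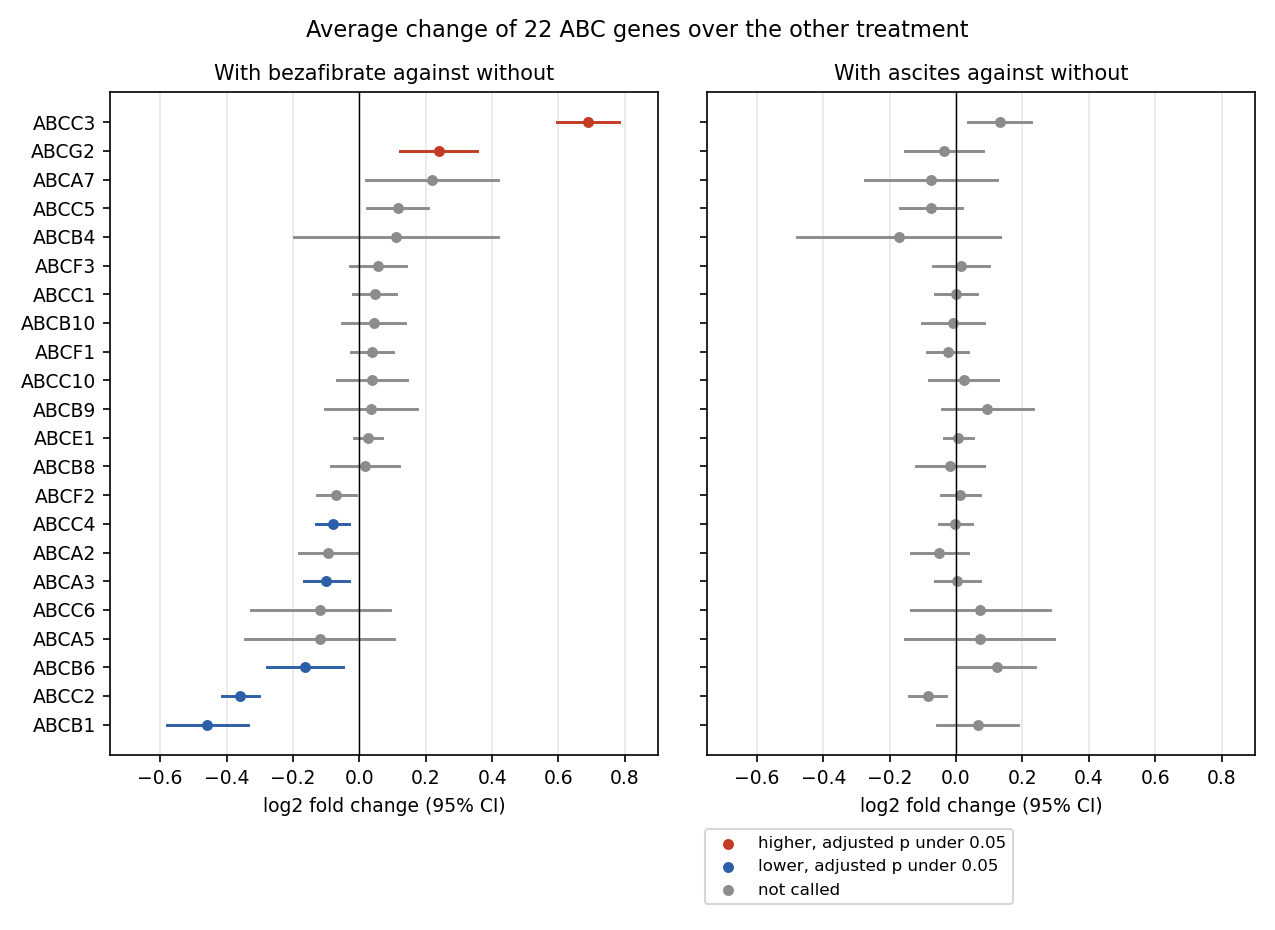
Log2 fold change with its 95% interval for 22 of the 23 described members, for the averaged drug effect on the left and the averaged ascites effect on the right, ordered by the drug effect. Red and blue points have an edgeR adjusted p under 0.05, and they run from 0.69 for ABCC3 to -0.46 for ABCB1 on the left, while every point on the right is grey.

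The 2 drug comparisons share no library and can be read side by side. With bezafibrate against control, 5 described members were called (21.7%), 2 higher and 3 lower, where 17.6% of all genes tested were called (10.1% higher and 7.55% lower). In the combination against ascites, 3 were called (13%), 1 higher and 2 lower, where 17.8% of all genes were called (10.5% higher and 7.29% lower). The change had the same sign in both for 20 of 23 members (87%), and for 73% of all genes tested. ABCC3, ABCC2 and ABCB1 were called in both. The signs were opposite for ABCA5, ABCB4 and ABCB8, none of which was called in either comparison.

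The difference between the drug change with and without ascites was tested as an interaction, in which 0% of all genes were called. No described member was called by edgeR or by DESeq2, and 1 had an unadjusted p under 0.05, as did 3.57% of all genes. For ABCC3 the difference was 0.05 (95% interval -0.14 to 0.24), for ABCB1 0.08 (-0.16 to 0.32), for ABCC2 -0.03 (-0.14 to 0.08) and for ABCG2 -0.09 (-0.32 to 0.14). Differences within these intervals were not excluded here.

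**Figure D4:**
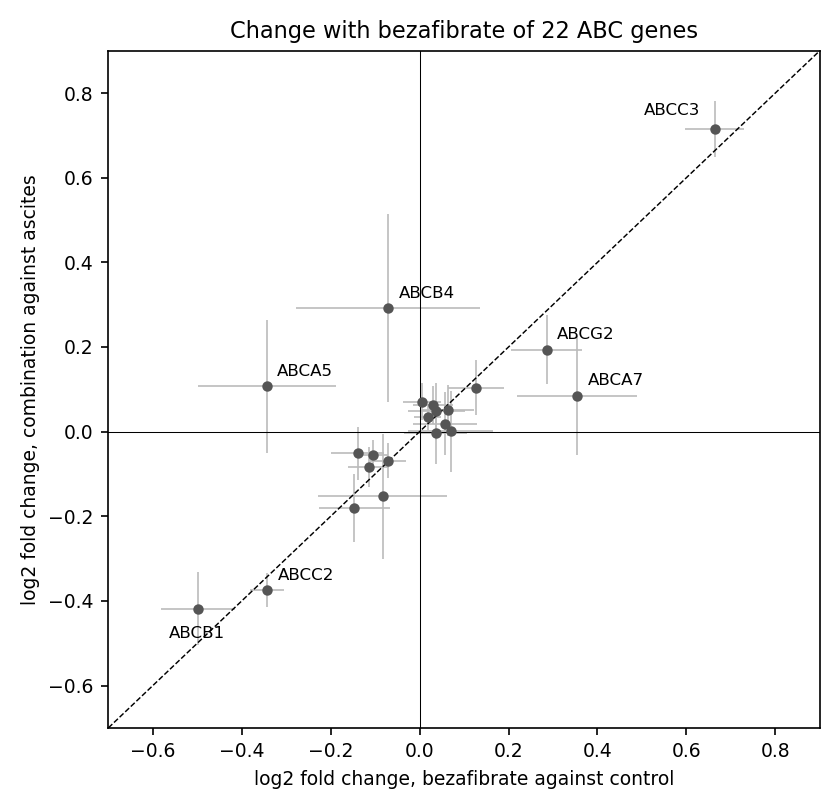
Log2 fold change with bezafibrate against control (horizontal axis) and in the combination against ascites (vertical axis) for 22 of the 23 described members, with bars for 1 SE and a dashed line of equality. ABCC3 lies at 0.66 and 0.71, ABCB1 at -0.50 and -0.42 and ABCC2 at -0.34 and -0.37, while ABCA5 and ABCB4 lie away from the line with wide bars.

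Ascites gave no call among the members. In the averaged ascites effect 0 of 23 were called by edgeR, against 0.281% of all genes, and 3 had an unadjusted p under 0.05, as did 6.97% of all genes. These were ABCC2 at -0.09 (edgeR adjusted p = 0.335), ABCC3 at 0.13 (edgeR adjusted p = 0.418) and ABCB6 at 0.12 (edgeR adjusted p = 0.681, and 0.07 without ascites replicate 3). Against control without the drug, 0 were called by edgeR, against 0.0882% of all genes, and 0 had an unadjusted p under 0.05, as did 6.01% of all genes. In the combination against bezafibrate, 0 were called by edgeR, against 0.128%, and ABCC2 (-0.10) and ABCC3 (0.16) had an unadjusted p under 0.05, as did 4.79% of all genes. DESeq2 called 0 members in each of these comparisons.

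The combination against control called 3 described members (13%), 1 higher and 2 lower, where 18.2% of all genes were called (10.3% higher and 7.96% lower). ABCC3 was higher by 0.82 on the log2 scale (1.77-fold, edgeR adjusted p = 1.56e-12), ABCC2 was at -0.44 (edgeR adjusted p = 1.92e-11) and ABCB1 at -0.39 (edgeR adjusted p = 0.000705). This comparison shares its libraries with the others. Without combination replicate 3 the values were 0.85, -0.43 and -0.42, and ABCC4 was called as well.

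The 16 members under 1 CPM were mostly close to the counting floor, where 3 counts in a library equal 0.161 to 0.255 CPM. ABCA10 and ABCA13 averaged 0.718 and 0.607 CPM. ABCC8, a potassium channel subunit, averaged 0.25 CPM with 1 to 8 counts a library, and ABCC11 and ABCB11, the bile salt export pump, had at most 5 and 6 counts. ABCG4, ABCG5, ABCG8, ABCA4, ABCA6, ABCA8, ABCA9 and ABCC9 had between 4 and 15 counts in all 12 libraries together, ABCB5 and ABCC12 had 1 each, and ABCA12 had 0 in every library.

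ABCA13 (chr7:48171458-48647496, plus strand), a very long ABCA member, was called at -1.66 in the averaged drug effect (SE 0.355, edgeR adjusted p = 0.000332). Its counts were 12, 10 and 13 in control, 13, 17 and 12 with ascites, 6, 10 and 1 with bezafibrate, and 7, 2 and 1 in the combination. Libraries with 10 or more counts numbered 3 in control, 3 with ascites, 1 with bezafibrate and 0 in the combination, so it entered the test through the groups where it was high, and nothing is drawn from its call. In the pairwise drug comparisons it was called against ascites (-2.01, edgeR adjusted p = 0.00457) and not against control (-1.31, edgeR adjusted p = 0.0534). Without combination replicate 3 the averaged drug effect was -1.49 (edgeR adjusted p = 0.000678) and the change against ascites -1.67, both still called. The combination against control was called too (-1.77, edgeR adjusted p = 0.017). That call was lost without combination replicate 2 or 3 or control replicate 3 (edgeR adjusted p of 0.0627 to 0.0714).

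Genes related to the members by function were counted from lists of textbook membership. In the averaged drug effect, 5 of the 8 tested ABC genes outside the rule rose and none fell, where 28.3% of all genes were called (15% higher and 13.2% lower). ABCG1 rose by 0.96 and ABCA1 by 0.83, the sterol exporters left out of the rule, and the peroxisomal ABCD2 rose by 0.89 and TAP1, a peptide transporter of antigen presentation, by 0.38. Of 11 tested ligand-activated and stress regulators, which include factors known to control efflux pumps, 2 rose and 3 fell. That is 45.5% called, beside 28.3% of all genes, and a link to the members was not tested. LXR alpha (NR1H3) rose by 1.10 and PPARD by 0.55, PPARG fell by 0.38 and the aryl hydrocarbon receptor AHR by 0.17.

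Of 4 tested organic anion uptake carriers, SLCO3A1 rose by 0.59 and the other 3 were not called (25% called). Of 24 tested conjugating enzymes, which make the substrates of ABCC2 and ABCC3, 3 rose and 2 fell, among them MGST3 at 0.43, MGST2 at 0.37, UGT2B7 at -0.42 and UGT8 at -0.16. Of 28 mitochondrial iron-sulfur and heme genes, 6 rose and 1 fell, with ALAS1, the first enzyme of heme synthesis, at 0.38, ACO1 at 0.35, ISCA1 at 0.26 and UROS at 0.26. Of 27 partners of the translation ATPases, 7 rose and 2 fell, with GCN1 at 0.21, PELO at 0.16, LTN1 at 0.14 and EIF2AK4 at -0.13. The called shares of the last 3 lists were 20.8%, 25% and 33.3%, near the 28.3% of all genes, and nothing is read from them about the lists. The median change was 0.29 for the other ABC genes and between -0.13 and 0.03 for the rest of these lists, beside -0.0047 for all genes tested. No gene of these lists was called by edgeR in the averaged ascites effect.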

How the data were processed

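For each of the 12 libraries the authors deposited gene counts as whole numbers, over the same 19677 genes. The submitters' processing notes name Trimmomatic 0.39, STAR 2.7.9a, RSEM 1.3.3, DESeq2 1.28.1 and GRCh38, without roles; whether the counts are rounded RSEM estimates, the annotation and the strand setting are not given in the sources used here. Groups and replicate numbers come from the sample labels.

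Counts were filtered with filterByExpr (minimum count 10, total 15), which kept 12470 genes, scaled by TMM and fitted in edgeR 4.0.16 (R 4.3.3) with 1 mean per group over all 12 libraries and a robust quasi-likelihood F test, Benjamini-Hochberg adjusted over the genes tested. CPM values are scaled by TMM. The code was tested on simulated data. Replicate pairs differed by a chi-square per degree of freedom of 1.44 to 4.45, so none was a copy of another. This cannot tell separate cultures from repeated libraries of 1 culture. Alternatives were DESeq2 1.42.0, limma voom 3.58.1, other scalings, no filter, only the groups compared, a replicate block and leaving out each library. Levels per kilobase use the GENCODE 29 principal transcript. Counts over a role list are counts only, without a set test.

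Members of at least 1 CPM were named, except 1 that is counted but not reported here, with all 12 libraries given for members called in any comparison and for ABCB1, ABCC1 and ABCG2. From each list of related genes at most 4 called genes were named. The members, lists and rules were chosen with earlier results of these data known.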

Additional observations from a re-analysis of the deposited data

How the results depend on the processing

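ABCC3, ABCC2 and ABCB1 kept their call and direction in the averaged drug effect and in each pairwise drug comparison under every alternative run, and ABCG2 and ABCC4 kept theirs in the averaged drug effect. Of 2843 values of tested members under alternatives, 2797 kept their side of the threshold, 18 lost and 28 gained a call, and none reversed as a called value. In 174 cases a sign changed with neither value called. Called members in the averaged drug effect numbered 6 (DESeq2) to 9 (upper-quartile scaling), and leaving out each library gave 6 to 9. With bezafibrate against control, leaving out 1 library gave 3 to 5, with 3 without control replicate 1. It gave 3 to 4 in the combination, set against either ascites or control. Counts in the ascites comparisons and the interaction stayed at 0 among members.

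Over all genes, the averaged ascites effect called 35, against 113 with no filter, 118 without combination replicate 3, 21 without ascites replicate 1 and 23 without ascites replicate 3. Ascites against control called 11, against 59 with no filter, 33 with only the groups compared, 7 with limma voom and 3 to 5 without any 1 library. The combination against bezafibrate called 16, against 52 with no filter, 7 with only the groups compared, 28 without combination replicate 3, and 10 and 9 without bezafibrate replicates 1 and 2. The interaction called 0, against 36 with no filter, 1 with DESeq2, 1 with the replicate block and 3 without combination replicate 1. The cause was not tested. Upper-quartile scaling moved the share of higher calls in the averaged drug effect from 53.2% to 43.3%.

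Replicate numbers did not pair the libraries: the correlation of deviations ran from -0.135 to 0.0613 over 18 same-numbered pairs, and 1 of 12 libraries matched best with its own number. With the number as a replicate block, 7 members were called in the averaged drug effect, 6 with bezafibrate against control and 3 in the combination against ascites, where the fit without it called 7, 5 and 3. The member added against control was ABCA7 (0.34, edgeR adjusted p = 0.0389). With 3 libraries a group, the 95% interval of ABCB4, the lowest described member by CPM, ran from -0.20 to 0.42 in the averaged drug effect. Changes within it were not excluded.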
